A study of Rattus norvegicus with 63 samples.

Results

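The comparison described here set the striatum of rats that had been injected with methylphenidate, and had then conditioned with and self-administered it, against the striatum of saline controls of the same cohort. It was defined by the sample labels alone, as Cohort2 Striatum Methylphenidate samples 1 to 3 minus Cohort2 Striatum Control samples 1 to 3, and took 6 of the 63 arrays of the series. All rats were male Wistar, 4 weeks old at arrival and 6 weeks old when injections began. The methylphenidate rats received 5 mg/kg intraperitoneally 2 times a day for 7 days, were tested for conditioned place preference with 5 mg/kg, and then self-administered 0.25 mg of the drug in 0.1 ml per infusion. The controls received saline at each of these steps, with infusions of 0.1 ml. Further groups of the same cohort received amphetamine or methamphetamine at 5 mg/kg in the injection and conditioning steps and infused 0.1 mg/kg, so the infused doses of the 3 drugs were not matched. In the naive cohort, saline injections preceded the tests: its methylphenidate rats (3 arrays) first met the drug during conditioning at 5 mg/kg and infused 0.25 mg, and its controls (5 arrays) had saline throughout. Brains were taken a day after the last self-administration test, from the rats of each drug group that had self-administered most robustly, so the drug groups were selected on behaviour. The striatal dissection held the rostral caudate putamen together with the nucleus accumbens. The labels speak both of 3 rats per group and of pools of RNA, so whether an array stands for a rat or for a pool is not settled, and p-values measure only the spread between these arrays.

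Methylphenidate blocks the reuptake of dopamine and noradrenaline, whereas amphetamine and methamphetamine also release monoamines from nerve terminals. Most neurons of the striatum are GABAergic projection neurons. One class carries the D1 receptor and the peptides substance P and dynorphin, the other the D2 receptor and enkephalin. Cholinergic cells are among the few interneurons. Repeated stimulant exposure is known to act on the expression of such peptides, of activity-dependent genes and of circadian clock genes in this region.

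Values are the authors' MAS5 signals, which are brightness values scaled so that each array has the same trimmed mean. They are given here as log2 signal, with signals below 1 set to 1. Median signals of the 6 arrays ran from 128.72 to 148.07, and correlations between arrays of one group (0.948 to 0.950 for saline, 0.937 to 0.941 for methylphenidate) lay close to those between groups (0.938 to 0.946). Differences are means of log2 signal ± SE from a limma model over all 32 striatal arrays. A call is an adjusted p (Benjamini-Hochberg over 8530 genes) under 0.05. Striatal identity was clear in all 6 arrays: Drd2 read 11.63 to 11.64 in saline and 11.2 to 11.4 in methylphenidate, against 7.09 to 7.89 in prefrontal cortex of the same controls. One striatal array outside these groups, replicate 1 of the naive rats given methamphetamine at 1.25 mg/kg, looked like cortex. Its Drd2 signal was 7.6, against 11.2 to 12.2 in the other 31, and its Slc17a7 signal was 10.8, against 6.15 to 9.09. In the comparisons of group means that array enters the tests only through the estimate of spread of each gene. Calls are given with and without it. It also counts in the choice of probe set and the filter on low signal. In a later fit with a marker covariate over all striatal arrays, it also bears on the size of the differences. Its cortical minus striatal marker mean was 1.38, against -3.44 to -1.64 in the other 31.

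On the means of marker lists, the methylphenidate arrays also held more cortical and less striatal signal than the saline arrays. The mean log2 signal of 13 cortical neuron markers was 9.03, 9.32 and 8.73 in saline 1 to 3 and 9.36, 10.1 and 9.91 in methylphenidate 1 to 3. The mean of 25 striatal projection neuron markers was 12.1, 12.0 and 12.1 in saline and 11.9, 11.7 and 11.7 in methylphenidate. Neither pair of groups overlapped, and methylphenidate 1 lay nearest to the controls on both. Each difference (0.75 and -0.32) gave p = 0.1 in an exact permutation test over the 6 arrays. That is the smallest p that 3 against 3 arrays allow. The shift was not particular to methylphenidate. Amphetamine arrays of the cohort also lay apart from saline on both means, at 9.48 to 9.81 (cortical) and 11.865 to 11.931 (striatal). With methamphetamine the cortical mean overlapped saline, at 9.21 to 9.47. Its striatal mean was 11.789 to 12.023, against 12.024 to 12.148 in saline. Of the 13 cortical markers, 9 were higher and 4 lower with methylphenidate. At an unadjusted limma p under 0.05, 7 were higher and 1 lower, against 5.72% and 6.15% of all genes. Tle4 was among the lower (-0.39), and in saline rats its cortex minus striatum value was -0.84. In linear signal, the 22 cortical markers on the array summed to 14000 to 15800 in saline and 15200 to 21300 in methylphenidate, against 39200 to 43600 in prefrontal cortex. The vesicular glutamate transporter Slc17a7, which defines cortical excitatory neurons and is nearly absent from striatal cells, read 7.05, 7.63 and 6.15 in saline and 8.44, 8.46 and 8.98 in methylphenidate. The excess of the 3' over the 5' probe set of Gapdh, which grows as RNA degrades, was 0.744 to 1.04 in saline and 1.07 to 1.17 in methylphenidate (exact p = 0.1). The same measure for actin overlapped, at 3.56 to 3.67 and 3.58 to 4.00 (exact p = 0.2). The summed signal of 7 blood cell markers was 9700 to 13400 in saline and 5060 to 9530 in methylphenidate. Fewer cells of a type and less RNA per cell cannot be told apart in such bulk tissue.

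**Figure D1:**
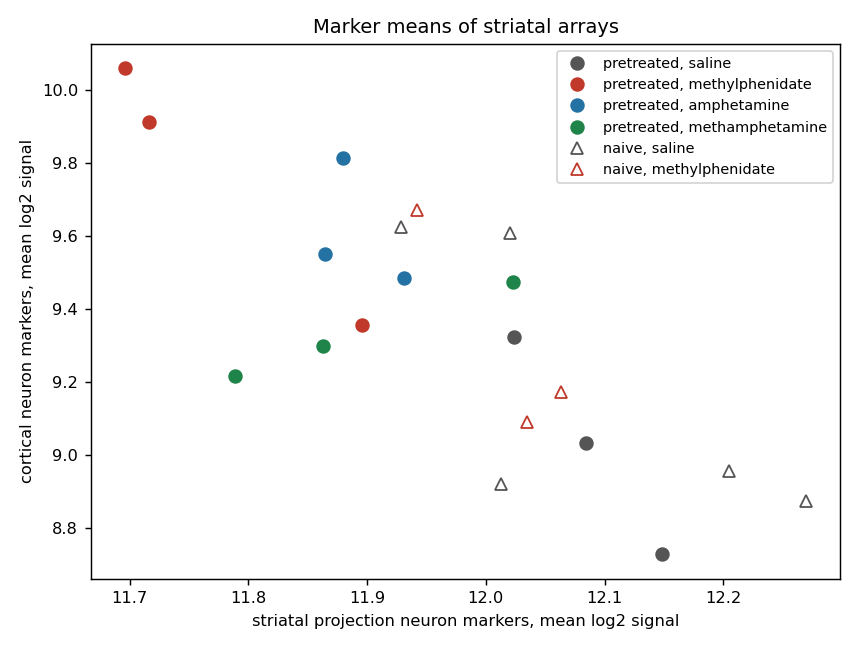
Mean log2 signal of 13 cortical neuron markers (y axis) against that of 25 striatal projection neuron markers (x axis) for striatal arrays, one point per array. The 3 pretreated methylphenidate arrays lie to the left of and above the 3 saline arrays of their cohort, from 9.36 to 10.1 against 8.73 to 9.32 on the y axis. The pretreated amphetamine arrays, from 9.48 to 9.81 on the y axis, also lie to the left of and above those saline arrays.

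Few genes passed. Syntaphilin (Snph), Msx1, Nfe2l2 and neuronal calcium sensor 1 (Ncs1) were higher after methylphenidate, 4 genes or 0.0469% of those tested. The clock gene Bmal1, the cannabinoid receptor gene Cnr1 and Rgs4 were lower, 3 genes or 0.0352%. All 7 stood at the same adjusted p in limma, 0.048. Without adjustment, 488 genes were higher (5.72%) and 525 lower (6.15%) at p under 0.05. The 3 methylphenidate arrays lay above all 3 saline arrays for 813 genes (9.53%) and below them for 950 (11.1%). Above 0 lay 46.6% of all genes, and their median was -0.0163.

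Among the genes that rose, Snph encodes a protein that anchors mitochondria in axons. Its probe set read 10.48, 10.37 and 10.41 in saline and 11.09, 11.25 and 10.80 in methylphenidate, a difference of 0.62 ± 0.12 (1.54-fold). The groups were separate, with methylphenidate 3 the lowest of the treated arrays. Ncs1, a calcium sensor that binds the D2 receptor, read 11.30, 11.35 and 11.10 in saline and 11.83, 12.09 and 11.72 in methylphenidate, a difference of 0.63 ± 0.13. All treated arrays were again above all controls. Both genes have further probe sets that differed less: 0.36 for Snph (limma adjusted p = 0.446), and 0.22, -0.34 and, below the filter on low signal, -0.19 for Ncs1, whose rise therefore rests on 1 of its 4 probe sets. With probe sets averaged, Ncs1 differed by 0.08 (limma adjusted p = 0.873).

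Nfe2l2 encodes Nrf2, the transcription factor of the antioxidant response. It read 9.90, 10.02 and 9.91 in saline and 10.37, 10.46 and 10.45 in methylphenidate, a difference of 0.48 ± 0.10. The treated arrays were close together and clear of the controls. Of 19 antioxidant response genes tested, Nfe2l2 alone passed, 13 lay above 0 and the median was 0.13, against -0.0163 over all genes. The glutathione transferase Gstm1 came next in that list (0.50 ± 0.24, limma adjusted p = 0.396). Msx1, a homeobox transcription factor, read 7.80, 7.90 and 7.74 in saline and 8.80, 8.43 and 8.73 in methylphenidate, a difference of 0.84 ± 0.17 (1.79-fold). Its 3 control arrays were below every other striatal array of the cohort.

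Among the genes that fell, Cnr1 encodes the CB1 receptor, through which endocannabinoids reduce transmitter release and which striatal projection neurons express. It read 13.17, 13.13 and 12.91 in saline and 12.20, 12.21 and 12.40 in methylphenidate, a difference of -0.80 ± 0.16. The groups were separate, and a second probe set gave -0.60 (limma adjusted p = 0.371). Rgs4 encodes a protein that shortens signalling by G proteins. It read 12.34, 12.29 and 12.36 in saline and 11.48, 11.91 and 11.71 in methylphenidate, a difference of -0.63 ± 0.13. The controls were tight, the treated arrays spread but all lower, and a second probe set gave -0.86 (limma adjusted p = 0.0888). In saline rats, prefrontal cortex minus striatum was -0.73 for Cnr1, 0.34 for Rgs4 and -0.28 for Bmal1. For the genes that rose it was 0.36 for Snph, 0.53 for Ncs1, -0.15 for Nfe2l2 and -0.55 for Msx1.

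**Figure D2:**
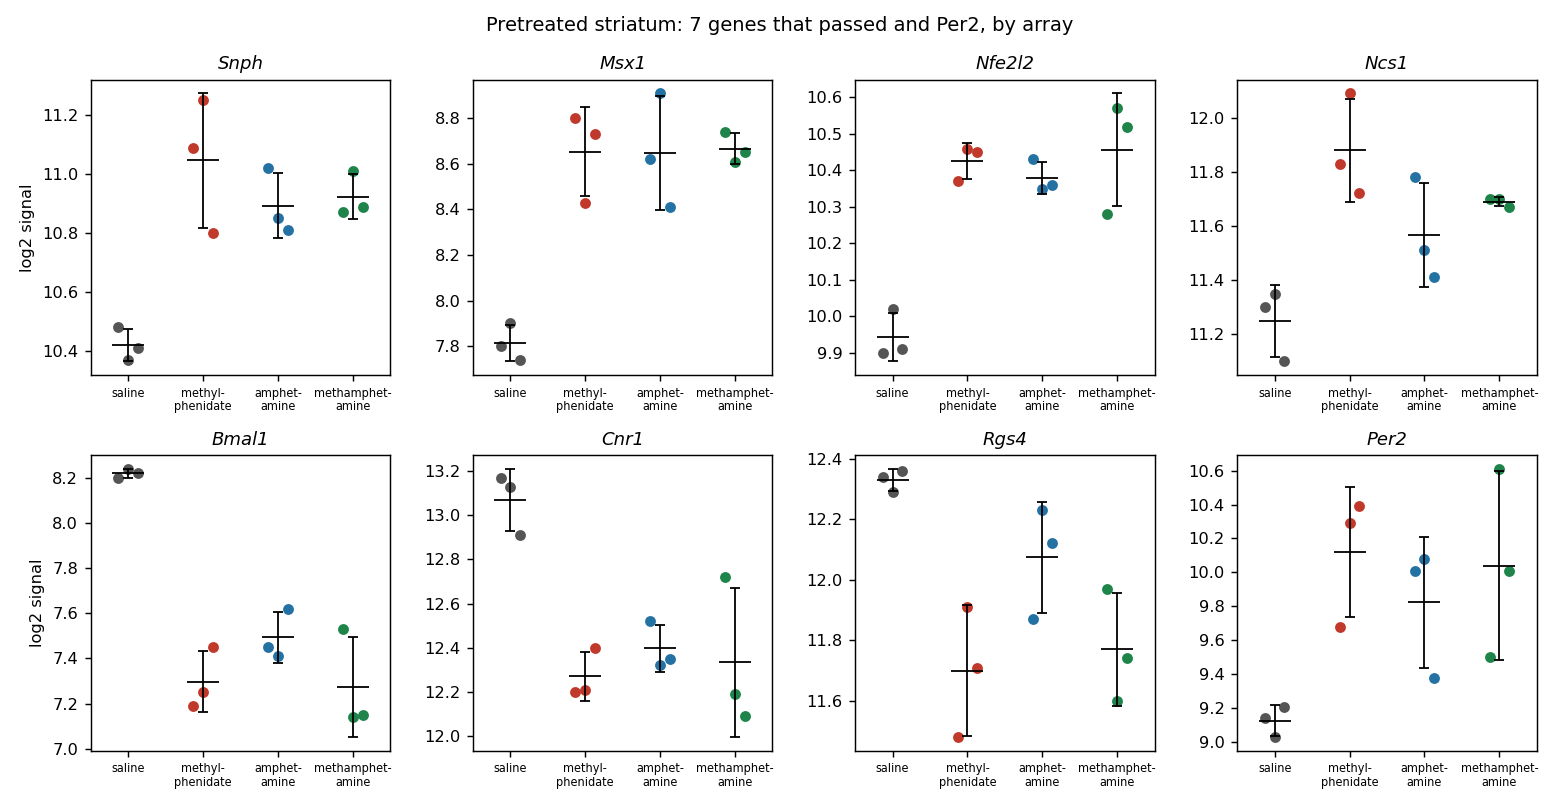
Log2 signal per array (points) with mean and SD (bars) for Snph, Msx1, Nfe2l2, Ncs1, Bmal1, Cnr1, Rgs4 and Per2 in the 4 pretreated groups. In every panel the 3 saline arrays lie apart from all 9 stimulant arrays.

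These calls sat at the threshold. Without any one of the 3 saline arrays, or without methylphenidate 1 or 2, no gene passed in limma, with 619 to 939 genes at an unadjusted p under 0.05. Without methylphenidate 3, 6 genes were higher and 9 lower, among them 4 of the 7. Over these 6 fits the difference ranged from 0.52 to 0.75 for Snph. It ranged from -1.01 to -0.88 for Bmal1 and from -0.88 to -0.75 for Cnr1. The groups did not overlap for any of the 7 genes, so leaving out 1 array could not change a direction. With the array mean of cortical minus striatal markers as a covariate over all striatal arrays, an alternative added after the data were seen, no gene passed (890 at an unadjusted p under 0.05). The 7 differences kept their sign there, from 0.44 to 0.78 in the genes that rose and from -0.88 to -0.59 in those that fell, with limma adjusted p of 0.0638 to 0.0816. This fit holds the array of cortical profile, and Cnr1 is itself among the markers that make the covariate. With the covariate over the 12 pretreated arrays, Ncs1 differed by 0.33, Nfe2l2 by 0.35 and Snph by 0.59. In that fit Msx1 differed by 1.01, Bmal1 by -1.04, Cnr1 by -1.03 and Rgs4 by -0.77, and the limma adjusted p of all 7 was 0.984.

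Bmal1 (Arntl in older annotation) encodes the activating partner of CLOCK, which drives the Per and Cry genes through E-boxes, while REV-ERB proteins repress Bmal1 itself through AGGTCA sites. It read 8.20, 8.24 and 8.22 in saline and 7.19, 7.25 and 7.45 in methylphenidate, a difference of -0.93 ± 0.17 (limma adjusted p = 0.048). The controls differed by hundredths of a log2 unit, and all treated arrays were lower. Per2, which encodes a repressor of the CLOCK and BMAL1 pair, read 9.14, 9.03 and 9.21 in saline and 9.68, 10.29 and 10.39 in methylphenidate, a difference of 0.99 ± 0.22. The groups did not overlap, but methylphenidate 1 was well below the other treated arrays, and the limma adjusted p was 0.0762 (0.0302 without the array of cortical profile). The promoters of the 2 genes are shown because these genes differed most within the clock list, in opposite directions. Each runs over the 250 bases before the RefSeq start in GRCr8. That of Per2 is chr9:99496994-99497243 on the minus strand, with capitals marking a D-box (TTATGTAA), 192 bases before the start, and an E-box variant (CACGTT), 62 before it. That of Bmal1 is chr1:176766078-176766327 on the plus strand, with capitals marking an AGGTCA site 15 bases before the start.
Per2: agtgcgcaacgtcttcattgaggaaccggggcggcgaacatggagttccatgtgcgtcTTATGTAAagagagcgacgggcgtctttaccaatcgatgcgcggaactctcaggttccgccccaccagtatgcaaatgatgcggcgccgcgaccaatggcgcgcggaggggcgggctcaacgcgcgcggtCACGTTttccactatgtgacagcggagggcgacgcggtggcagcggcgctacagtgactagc
Bmal1: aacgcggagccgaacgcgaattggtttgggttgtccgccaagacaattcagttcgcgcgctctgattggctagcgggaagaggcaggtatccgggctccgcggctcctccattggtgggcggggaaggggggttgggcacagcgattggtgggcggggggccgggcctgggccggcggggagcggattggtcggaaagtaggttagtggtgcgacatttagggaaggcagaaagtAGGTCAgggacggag

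Searched on both strands in the 33469 promoters of that table, the E-box CACGTG was present in 5.59%, the D-box in 0.828%, CACGTT in 4.07% and AGGTCA in 14.1%; the last 2 motifs were added after the data were seen. Of the 19 clock genes tested, 16 had a promoter in the table. Bhlhe40, Bhlhe41, Nr1d1 and Tef held CACGTG (25%), Per2 alone held the D-box, Cry2, Nr1d1 and Per2 held CACGTT, and Bmal1 and Nr1d2 held AGGTCA. Of the 7 genes that passed, 5 were in the table, and none of these held CACGTG, the D-box, the cyclic AMP response element TGACGTCA, the heat shock element or the glucocorticoid response element in these windows. The last 3 motifs were present in 1.59%, 0.663% and 0.012% of all promoters. A match of letters is not a measured binding site.

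Of the 19 clock genes, Bmal1 passed and was lower. At an unadjusted p under 0.05, 7 were higher and 1 lower, against 5.72% and 6.15% of all genes. Above 0 lay 13 of the 19, and their median was 0.22. After Per2, the larger differences were those of the nuclear receptor Rorb (0.65 ± 0.23), Per3 (0.59 ± 0.27) and the PAR bZIP factors Dbp (0.43 ± 0.20) and Tef (0.38 ± 0.14), none of which passed (limma adjusted p from 0.267 to 0.394). Rorb is also on the list of cortical neuron markers. Nr1d2, which encodes REV-ERB beta, read 11.50, 11.37 and 11.44 in saline and 11.62, 11.69 and 11.77 in methylphenidate, a difference of 0.26 ± 0.09 (limma adjusted p = 0.244). Its groups were separate by a narrow margin. Clock (-0.21), Cry1 (0.03), Nr1d1 (-0.01) and the casein kinases Csnk1d (-0.03) and Csnk1e (-0.08) showed overlapping groups. Tissue was taken a day after the final test, and no label gives the hour of day.

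**Figure D3:**
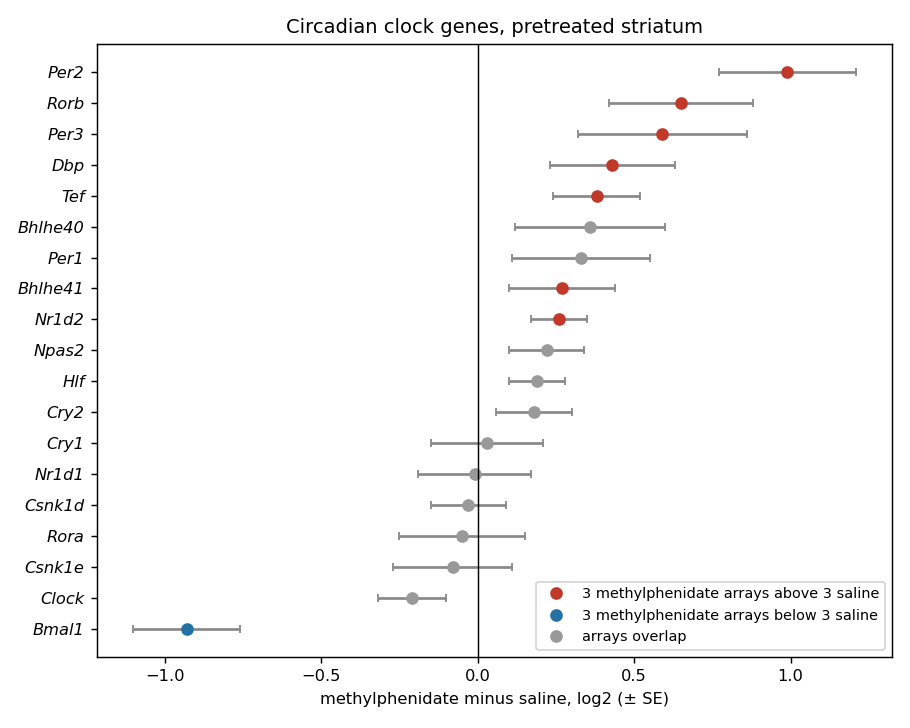
Difference in log2 signal between methylphenidate and saline (x axis, ± SE) for the 19 clock genes tested (y axis), coloured by whether the 3 treated and 3 control arrays overlap. Per2 (0.99) and Bmal1 (-0.93) lie at the ends.

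The prefrontal cortex of the same rats, analysed in a separate limma model of 31 arrays, gave 7 genes that were higher (0.0821%) and 1 that was lower (0.0117%), clock genes among the former. Per2 there read 9.27, 9.17 and 9.17 in saline and 9.88, 10.13 and 10.46 in methylphenidate, a rise of 0.95 ± 0.17 (adjusted p = 0.0111). Nr1d2 rose by 0.51 ± 0.08 (limma adjusted p = 0.00777), Per1 by 0.83 (limma adjusted p = 0.00996) and Bhlhe41 by 0.60 (limma adjusted p = 0.0129). The median of 18 clock genes tested in cortex was 0.363. Bmal1 was lower by less than in striatum and did not pass (-0.37 ± 0.16, limma adjusted p = 0.616). The difference between regions was not tested. Of the other genes called in striatum, Nfe2l2 was closest to passing in cortex (0.45 ± 0.10, limma adjusted p = 0.0822).

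Several genes fell just short in striatum. Cyp4f4, a cytochrome P450 of fatty acid metabolism, read 7.32, 7.63 and 7.33 in saline and 8.26, 8.22 and 8.19 in methylphenidate (0.80 ± 0.17, limma adjusted p = 0.0674). Camk2a, the alpha subunit of the calcium-dependent kinase of excitatory synapses, read 13.03, 13.20 and 12.97 in saline and 13.64, 13.87 and 13.39 in methylphenidate (0.57 ± 0.14, limma adjusted p = 0.115). The chloride and proton exchanger gene Clcn4 read 10.30, 10.36 and 10.34 in saline and 9.73, 9.81 and 10.05 in methylphenidate (-0.47 ± 0.10, limma adjusted p = 0.0674). Groups were separate for all 3 genes. Wbp1l was higher (0.53), and Yipf4 (-0.53), Smu1 (-0.42), Zdhhc14 (-0.52) and Zfpl1 (-0.50) were lower, with limma adjusted p from 0.0763 to 0.101. Further probe sets differed by 0.14 and -0.04 for Wbp1l, and by 0.61, 0.13 and 0.18 for Camk2a. The limma adjusted p of these further probe sets ran from 0.371 to 0.97.

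With the array of cortical profile left out of the model, 18 genes were higher (0.211%) and 27 lower (0.317%). The 7 genes called with all arrays were among them. All 45 had groups that did not overlap, against 9.53% (higher) and 11.1% (lower) of all genes. Selection by p on these same arrays favours such genes, so this adds no support. Of the 18 higher genes, 16 have a higher signal in cortex than in striatum of saline rats, against 3 of the 27 lower genes and 4118 of all 8530. The same split showed at an unadjusted p under 0.05 with all arrays: 327 of the 488 higher genes, and 148 of the 525 lower genes, were the higher in cortex. Both splits use the same striatal saline arrays that were subtracted to find the differences. A gene low in those arrays by chance leans to the higher side of both, so the splits are partly built in. The mean of the cortical markers named above was also higher with methylphenidate. No gene passed in either fit with the marker covariate, but sizes differed between genes. Over all striatal arrays, the array of cortical profile included, Clcn4 went from -0.47 to -0.50 and Per2 from 0.99 to 0.90, whereas Slc5a7 went from -0.65 to 0.02 and Rasgrp2 from -0.72 to -0.03. Over the 12 pretreated arrays these 4 genes differed by -0.56, 0.60, -0.51 and -0.39.

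Of these added genes, the smallest adjusted p was that of Tac1, which encodes the precursor of substance P and marks D1 projection neurons. It read 12.46, 12.38 and 12.54 in saline and 11.38, 11.59 and 11.77 in methylphenidate, a difference of -0.88. All 3 treated arrays were below the controls and below all 6 arrays of the other stimulants. The SE was 0.12 without the array of cortical profile (limma adjusted p = 0.000834) and 0.41 with it (adjusted p = 0.396), since Tac1 read 9.34 on that array. With the marker covariate, Tac1 differed by -0.26 over all arrays and by -1.02 over the 12 pretreated arrays, and passed in neither fit (limma adjusted p of 0.681 and 0.984). Tac1 is one of the markers that make the covariate.

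Other striatal genes were lower in the fit without that array. Nts, the precursor of neurotensin, read 9.87, 9.70 and 10.14 in saline and 8.73, 8.74 and 9.49 in methylphenidate, a difference of -0.92 ± 0.20 (limma adjusted p = 0.033, and 0.341 with all arrays). Chat, which makes acetylcholine, read 8.18, 8.63 and 8.37 in saline and 7.28, 6.97 and 7.75 in methylphenidate (-1.06 ± 0.24, limma adjusted p = 0.0384, and 0.374 with all arrays). The choline transporter gene Slc5a7 read 10.29, 10.30 and 10.66 in saline and 9.79, 9.57 and 9.94 in methylphenidate (-0.65 ± 0.15, limma adjusted p = 0.0478, and 0.572 with all arrays). For these 3 genes too the groups were separate. With the marker covariate over all striatal arrays, Nts differed by -0.42, Chat by -0.41 and Slc5a7 by 0.02, and over the 12 pretreated arrays by -0.82, -1.14 and -0.51. Rasgrp2 (-0.72), which activates Rap1 in projection neurons, the calcium channel subunit gene Cacna2d3 (-0.56), the potassium channel gene Kcnk2 (-0.41) and Pdp1 (-0.71), a phosphatase of pyruvate dehydrogenase, also fell in that fit. With all arrays in the model the limma adjusted p of these 4 genes ran from 0.159 to 0.512. Against saline, Chat differed by -0.82 with amphetamine and -0.96 with methamphetamine, Slc5a7 by -0.55 and -0.56, and Nts by -0.87 and -0.40. These values were -0.69 and -0.77 for Rasgrp2, -0.43 and -0.40 for Cacna2d3, -0.18 and -0.24 for Kcnk2, and -0.36 and -0.29 for Pdp1. Of 8 striatal interneuron markers tested, 6 lay below 0, with a median of -0.261. The summed signal of the 16 on the array overlapped (8230 to 9560 in saline, 6690 to 9570 in methylphenidate).

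Among the genes added as higher in that fit, Hs3st2, a heparan sulfate sulfotransferase, read 7.54, 7.45 and 6.90 in saline and 8.76, 8.68 and 9.67 in methylphenidate (1.74 ± 0.34, limma adjusted p = 0.0192, and 0.163 with all arrays). Its signal in cortex of saline rats was higher than in striatum by 3.03. The postsynaptic scaffold gene Shank1 read 10.76, 11.09 and 10.65 in saline and 11.49, 12.20 and 11.73 in methylphenidate (0.97 ± 0.21, limma adjusted p = 0.0313, and 0.244 with all arrays), with a cortical excess of 1.65. Both sets of arrays were separate. Camk2a, Per2, Cyp4f4, Wbp1l, Cables1 (0.96), Pitpnm3 (0.75), Hes1 (0.67) and the potassium channel gene Kcnh3 (0.57) rose too in that fit. With all arrays in the model, the limma adjusted p of these 8 genes ran from 0.0674 to 0.281.

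The gene lists are described by their counts and medians over tested genes, all from the model with every array; none was tested as a set. Counts at an unadjusted p under 0.05 stand against 5.72% higher and 6.15% lower over all genes. Of 25 striatal projection neuron markers, Cnr1 alone passed, 22 lay below 0, and the median was -0.35. The dopamine receptor gene Drd1 read 12.95, 12.76 and 13.04 in saline and 12.57, 12.41 and 12.62 in methylphenidate. Drd2 read 11.63, 11.64 and 11.63 in saline and 11.38, 11.21 and 11.26 in methylphenidate. Both receptors were lower in every treated array, by -0.38 ± 0.44 and -0.35 ± 0.58, with limma adjusted p of 0.76 and 0.852 (0.114 and 0.216 without the array of cortical profile). The enkephalin gene Penk (-0.38 ± 0.39) and the dynorphin gene Pdyn (-0.52 ± 0.45) did not pass either. These 4 genes are among the markers that make the covariate, so that each is adjusted partly for itself. With the covariate over all striatal arrays, the array of cortical profile included, Drd1, Drd2, Penk and Pdyn changed sign, to 0.30, 0.58, 0.22 and 0.11. Over the 12 pretreated arrays they stayed below 0, at -0.19, -0.21, -0.17 and -0.41.

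Of 33 genes of dopamine, adenosine and cAMP signalling, Rgs4 passed; 11 lay above 0 and the median was -0.148. Ppp1r1b, which encodes DARPP-32, read 12.40, 12.42 and 12.51 in saline and 12.38, 12.24 and 12.10 in methylphenidate (-0.21 ± 0.40), a small difference with no overlap. Of 19 neuropeptide genes none passed (limma; 3 higher and 5 lower at an unadjusted p under 0.05), and the median was -0.233. Cartpt, known as a stimulant-regulated transcript, read 10.49, 10.18 and 10.93 in saline and 9.36, 9.75 and 10.57 in methylphenidate (-0.64 ± 0.30, limma adjusted p = 0.402), with overlap. Cck, abundant in cortex, read 10.57, 11.13 and 9.64 in saline and 11.06, 12.43 and 12.11 in methylphenidate (1.42 ± 0.53, limma adjusted p = 0.283). Cck reversed to -0.39 with the covariate over the pretreated arrays.

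The 30 immediate early and activity genes had a median of -0.0201 and none passed (limma; 2 higher and 5 lower at an unadjusted p under 0.05, against 5.72% and 6.15% of all genes). Fos, the marker of recent neuronal activity, read 9.69, 9.20 and 9.36 in saline and 8.64, 8.66 and 9.27 in methylphenidate (-0.56 ± 0.43, limma adjusted p = 0.613). Arc (-0.38 ± 0.30), Egr1 (-0.20 ± 0.15) and Nr4a1 (-0.16 ± 0.25) overlapped as well. Homer1, whose short form uncouples metabotropic glutamate receptors, read 12.32, 12.30 and 12.20 in saline and 11.72, 12.02 and 12.05 in methylphenidate (-0.34 ± 0.13, limma adjusted p = 0.281). The treated arrays of Homer1 were all lower. Nr4a2 went the other way, from 7.98, 8.33 and 6.74 to 9.33, 9.31 and 9.76 (1.79 ± 0.56, limma adjusted p = 0.213), and it is also one of the cortical markers.

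No member of the lists that follow passed in limma. Of 20 oligodendrocyte and myelin markers, 18 lay below 0 and the median was -0.359. At an unadjusted p under 0.05, 9 were lower (6.15% of all genes). The summed linear signal of the 22 on the array overlapped, at 111000 to 139000 in saline and 105000 to 139000 in methylphenidate. The myelin protein gene Mal read 12.73, 13.06 and 13.01 in saline and 12.51, 12.20 and 12.29 in methylphenidate (-0.60 ± 0.14, limma adjusted p = 0.106), and it fell in the fit without the array of cortical profile (adjusted p = 0.0384). Ugt8 (-1.19 ± 0.34) and Mag (-0.86 ± 0.26), genes of myelin lipid and adhesion, were lower in every treated array. Of 18 astrocyte markers, 15 lay above 0, 7 were higher at an unadjusted p under 0.05 and the median was 0.247. The glutamate transporter gene Slc1a3 (0.34 ± 0.09) and Aldoc (0.43 ± 0.12) had the smallest p of them. All 40 cytosolic ribosomal protein genes lay above 0, with a median of 0.324, and 14 were higher at an unadjusted p under 0.05. Their mean log2 signal ran from 13.4 to 13.6 in saline and from 13.5 to 13.9 in methylphenidate, so the arrays overlapped.

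Of 22 glucocorticoid-responsive genes, 18 lay above 0, 7 were higher at an unadjusted p under 0.05 (5.72% of all genes) and none passed. The median was 0.357, against 0.408 with amphetamine and 0.912 with methamphetamine, each minus the same saline arrays. Tsc22d3, an anti-inflammatory target of the glucocorticoid receptor, read 11.34, 11.19 and 11.42 in saline and 11.72, 11.92 and 11.72 in methylphenidate (0.47 ± 0.21, limma adjusted p = 0.376). Bcl6 (0.73 ± 0.22) and Mertk (0.71 ± 0.21) were likewise higher in every treated array, whereas Fkbp5, a co-chaperone of the receptor, differed by 0.28 ± 0.18. Of 35 heat shock and unfolded protein genes, 28 lay below 0, 8 were lower and 1 higher at an unadjusted p under 0.05, and the median was -0.126. The chaperone gene Dnaja1 read 12.10, 12.46 and 12.20 in saline and 11.58, 11.86 and 11.90 in methylphenidate (-0.47 ± 0.12, limma adjusted p = 0.119). Of 14 GABA genes, 11 lay below 0 with a median of -0.186, with the smallest p for gephyrin (Gphn, -0.35 ± 0.10) and the receptor subunit gene Gabra4 (-0.68 ± 0.22). Of 33 glutamate receptor and postsynaptic genes, 16 lay above 0 and the median was -0.00438.

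**Figure D4:**
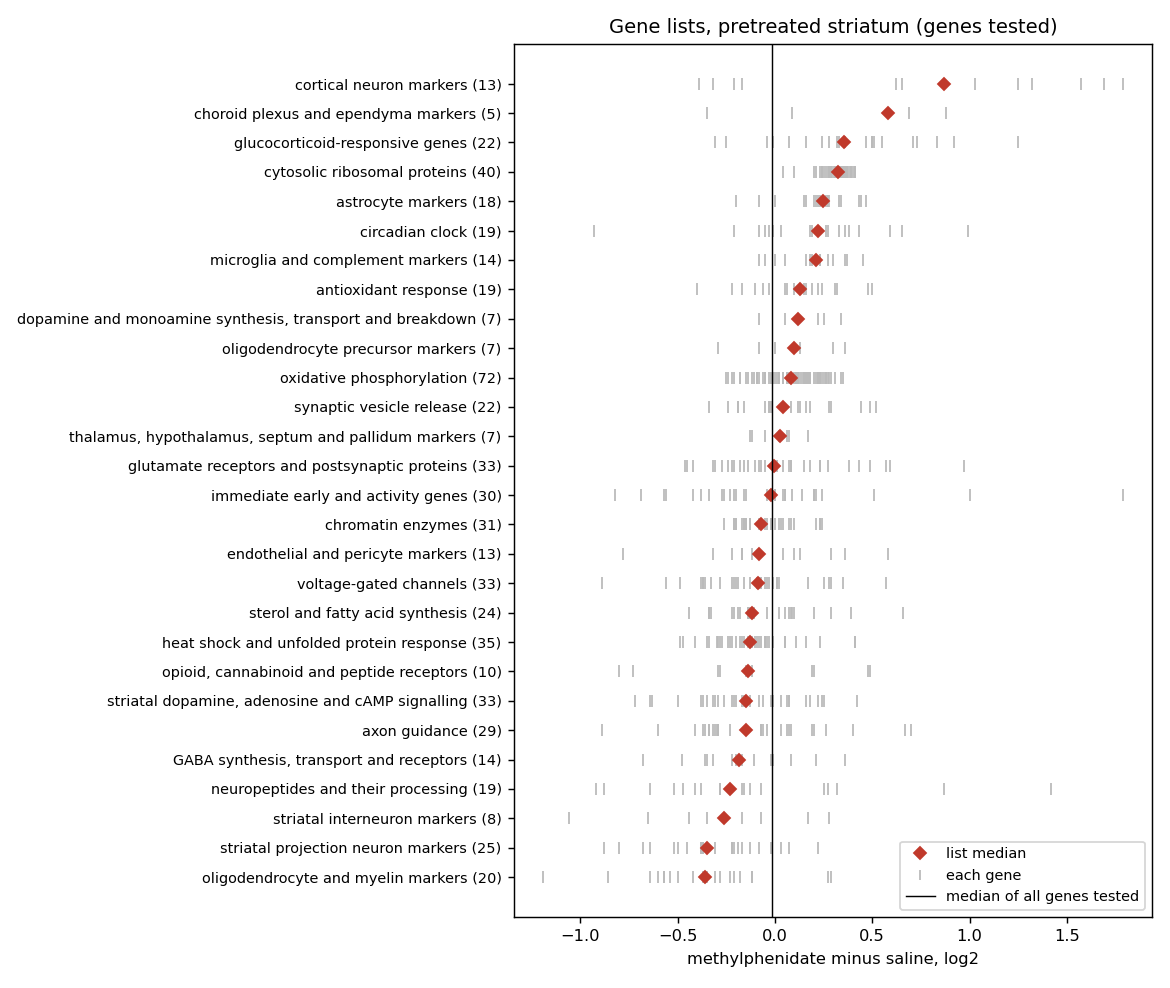
Differences in log2 signal between methylphenidate and saline for each tested gene of each list (ticks) with the list median (diamonds), for lists with at least 5 genes tested. The vertical line is the median over all genes (-0.0163); cortical neuron markers have the highest median (0.868) and oligodendrocyte and myelin markers the lowest (-0.359).

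The groups that received amphetamine or methamphetamine were compared with the same saline arrays, so their differences from saline share those arrays with the values above and are set beside them only as values. For Bmal1 the difference was -0.93 with methylphenidate, -0.73 with amphetamine and -0.95 with methamphetamine, and for Cnr1 it was -0.80, -0.68 and -0.74. For Msx1 it was 0.84, 0.83 and 0.85, for Nfe2l2 0.48, 0.44 and 0.52, and for Snph 0.62, 0.47 and 0.50. Ncs1 (0.63, 0.32 and 0.44) and Rgs4 (-0.63, -0.25 and -0.56) were, like Snph and Cnr1, furthest from saline with methylphenidate. For all 7 genes the 3 saline arrays lay beyond all 9 stimulant arrays, as they did for 520 of the 8530 genes (6.1%). In the same order of drugs, list medians were 0.868, 0.782 and 0.355 for cortical neuron markers. They were -0.35, -0.198 and -0.166 for striatal projection neuron markers, and -0.359, -0.109 and -0.334 for myelin markers. Astrocyte markers gave 0.247, 0.197 and 0.115, ribosomal protein genes 0.324, 0.243 and 0.387, and clock genes 0.22, 0.048 and 0.139. Between the controls of the cohorts, pretreated saline minus naive saline was -0.63 for Snph, -0.76 for Msx1, -0.37 for Ncs1 and 0.51 for Cnr1, values with no test. Naive saline Msx1 ran from 8.30 to 8.76 and so covered most of the pretreated methylphenidate range of 8.43 to 8.80.

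Methylphenidate arrays were also set against those of each other stimulant directly, with no array shared. Against methamphetamine no gene passed in limma in either direction (711 genes, or 8.34%, at an unadjusted p under 0.05), and against amphetamine none passed either (330 genes, or 3.87%). These are 2 pairs of drugs, with equal injected and unequal infused doses. For Bmal1 the difference from methamphetamine was 0.02, with a 95% interval of -0.34 to 0.38, and from amphetamine -0.20, with an interval of -0.56 to 0.16. For Msx1 these were -0.01 (-0.36 to 0.33) and 0.00 (-0.34 to 0.35). For Rgs4 the difference from amphetamine was -0.37 (-0.64 to -0.11, limma adjusted p = 0.997) and from methamphetamine -0.07 (-0.33 to 0.20). For Bmal1 and Msx1 all bounds were smaller than the difference from saline, while for Rgs4 the interval against amphetamine reached a difference of that size.

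Without the array of cortical profile, an alternative added for this pair of drugs after the data were seen, 4 genes were higher (0.0469%) and 2 lower (0.0234%) with methylphenidate than with methamphetamine, and in limma none against amphetamine (401 at an unadjusted p under 0.05). Tac1 read 12.12, 12.57 and 12.32 with methamphetamine, above all methylphenidate arrays, a difference of -0.76 ± 0.12 (limma adjusted p = 0.0111; 0.628 with all arrays). Prom1, which encodes a membrane glycoprotein of stem and epithelial cells, read 9.80, 9.51 and 9.82 with methylphenidate and 8.85, 7.75 and 8.50 with methamphetamine (1.34 ± 0.27, limma adjusted p = 0.0498, and 0.186 with all arrays). It differed from saline by 0.02 with methylphenidate and by -1.32 with methamphetamine. Hs3st2 (1.68), the Wnt receptor gene Fzd2 (1.09) and the cadherin gene Cdh10 (0.64) were higher, and the adhesion receptor gene Adgrv1 (-0.79) was lower. With all arrays, the limma adjusted p was 0.418 for Hs3st2 and 0.186 for the other three. Without methamphetamine 1, 21 genes were higher and 45 lower.

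The 3 methylphenidate arrays lay above all 9 other pretreated striatal arrays for 77 genes (0.903%) and below them for 78 (0.914%). Tac1, Clcn4, Zfpl1, Kcnk2 and Pdp1 were among those below. Cyclin D2 (Ccnd2) was among those above: it read 11.70, 11.75 and 11.82 with methylphenidate, 10.76, 10.81 and 10.95 with saline, 10.73, 10.63 and 10.73 with amphetamine, and 11.35, 10.18 and 10.43 with methamphetamine. One methamphetamine array came near, and the difference from saline did not pass (0.92 ± 0.31, limma adjusted p = 0.244). The chaperone-like gene Hspa12a read 11.04, 11.19 and 11.41 with methylphenidate, 10.42, 10.46 and 10.50 with amphetamine and 10.69 to 10.72 with saline. Its difference from amphetamine was 0.75 ± 0.15 (limma adjusted p = 0.178).

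Whether the effect of methylphenidate depended on pretreatment was tested as the difference between the 2 cohorts' effects, each against its own saline group. Clcn4 alone passed in limma, with a lower effect in the pretreated cohort (1 gene of 8530, or 0.0117%; 1233, or 14.5%, at an unadjusted p under 0.05). In naive rats it read 10.31, 9.88, 10.08, 10.04 and 10.26 with saline and 10.55, 10.42 and 10.29 with methylphenidate, so the treated arrays were high, with one of them within the control range. In pretreated rats, as given above, all treated arrays were low. The difference of effects was -0.78 ± 0.14 (limma adjusted p = 0.0338). It did not pass after quantile normalization (limma adjusted p = 0.0654), nor with a split of the arrays by their BioB spike-in signal as a block (-0.74, limma adjusted p = 0.165). No label names a batch; the split was read from the spike-in, whose log2 signal was 6.12 to 6.56 on the naive methylphenidate arrays, below 8 on 2 of the 5 naive saline arrays, and 9.18 or more on all pretreated striatal arrays. With this block no gene was higher and 1 lower in limma (852 at an unadjusted p under 0.05), and the fit was not run together with the removal of the array of cortical profile.

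In naive rats, methylphenidate minus saline was -0.05 for Snph, -0.34 for Msx1, 0.13 for Nfe2l2, 0.05 for Ncs1, -0.21 for Bmal1, 0.10 for Cnr1 and 0.08 for Rgs4. Msx1 read 8.41, 8.30 and 7.99 in naive methylphenidate rats, with 2 of these arrays within the range of their controls (8.30 to 8.76), and the naive difference did not pass (limma adjusted p = 0.322). Its difference of effects was 1.18 ± 0.22 (limma adjusted p = 0.061). Cyfip2, a regulator of actin assembly at synapses, read 11.97, 11.88 and 11.77 in naive methylphenidate rats, below all 5 naive controls (12.34 to 12.61), and 12.87, 12.87 and 12.39 in pretreated ones, above controls of 12.32 to 12.38. Its difference of effects was 1.01 (limma adjusted p = 0.0794). Septin3 (1.22 ± 0.24) and Snx14 (-0.96) followed. Without the array of cortical profile, 18 genes were higher (0.211%) and 15 lower (0.176%), among them Msx1, Septin3, Cyfip2 and Snph above 0 and Tac1 (-0.75 ± 0.17, limma adjusted p = 0.0426), Cnr1 (-0.90), the kappa opioid receptor gene Oprk1 (-1.28) and Slc5a7 (-1.03) below. With all arrays these 8 genes had limma adjusted p of 0.061 to 0.54. With all arrays, Bmal1 (-0.72, with a 95% interval of -1.20 to -0.24) and Per2 (0.37, with an interval of -0.22 to 0.97) did not pass. Without methylphenidate 3, 41 genes were higher and 44 lower, and without naive saline 5 the counts were 26 and 11. Without pretreated saline 1, 2 or 3, methylphenidate 1 or 2, naive saline 2 or 4, or naive methylphenidate 1 or 2, none passed in limma (912 to 1323 at an unadjusted p under 0.05).

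**Figure D5:**
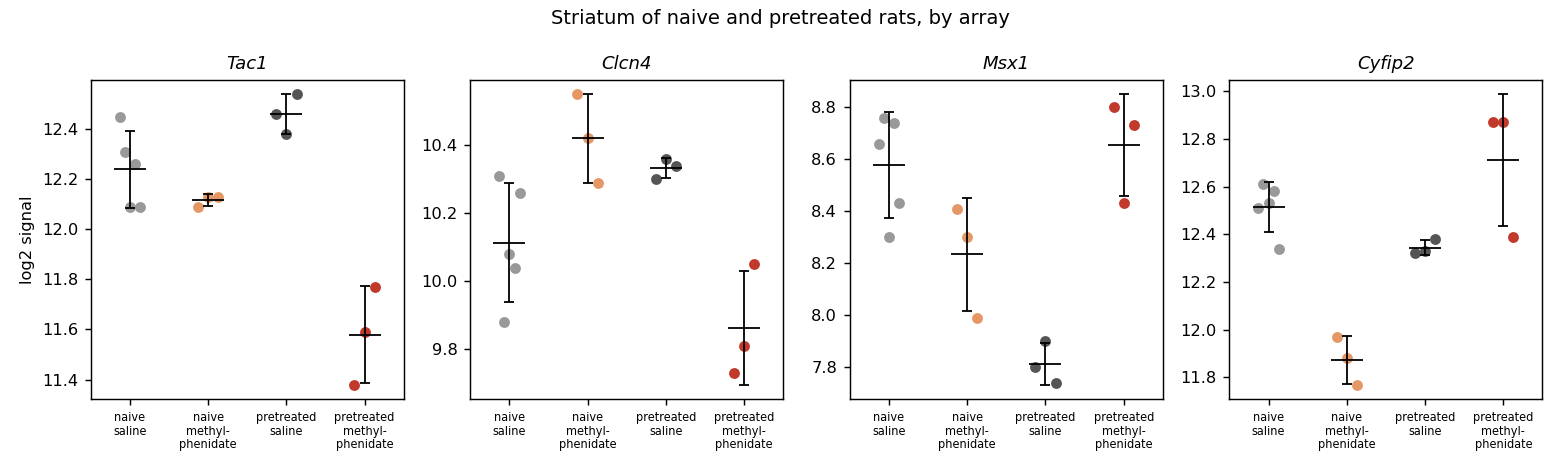
Log2 signal per array (points) with mean and SD (bars) for Tac1, Clcn4, Msx1 and Cyfip2 in the striatum of naive saline (5 arrays), naive methylphenidate (3), pretreated saline (3) and pretreated methylphenidate (3) rats. Tac1 is low in the pretreated methylphenidate arrays alone (11.38 to 11.77), and the naive saline arrays of Msx1 (8.30 to 8.76) lie near the pretreated methylphenidate arrays.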

How the data were processed

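RNA of 63 rat brain samples was hybridised to Affymetrix expression arrays, 32 from striatum. The deposited series table holds an intensity per probe set, which the authors made with MAS5, per the submitters' processing notes; its version and settings are not given in the sources used here. Every array has a trimmed mean near 500.2. Signals under 1 were set to 1 (18232 values) and log2 was taken. Of 31099 probe sets, 20832 carry 1 gene symbol, 436 several and 9831 none. Each of 14217 genes took its probe set with the highest mean, and the lowest 40% by striatal mean were left out, which leaves 8530. limma 3.58.1 in R 4.3.3 fitted 1 mean for each of 10 striatal groups (22 residual degrees of freedom) with an intensity trend; cortex was fitted apart. Tested on simulated data, the fit recovered 46.3% of genes changed by 0.5 log2, 89.6% at 1 and 100% at 2. It made 10 false calls of 167. The simulation drew independent normal noise and held no shift in tissue make-up. It gave more calls than the 7 of the real data, so these shares need not hold there. The number of arrays limits the precision.

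Genes were named by rule: those with the smallest p or largest change in each comparison, the leading member of each list, and a set chosen by name. Genes named from the fit without the array of cortical profile, other list members, and those singled out as lying apart from all other pretreated arrays were chosen after their values were seen. The comparison, the 30 lists (925 entries) and the tests were chosen with earlier results of these data known. Promoters are from RefSeq GRCr8; those of Snph and Cnr1 are not used here.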

Additional observations from a re-analysis of the deposited data

Results flagged for a closer look

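Clcn4 had a difference between the methylphenidate effects of pretreated and naive striatum of -0.78, which passed in a test of that difference (limma adjusted p = 0.0338); over its alternatives the call was lost in most, as given in the report. In Nfe2l2 and Wbp1l, 1 of the 5 naive striatal saline arrays stood apart: the gap to its neighbour was 0.749 of the group's range in each gene, above the 95% limit of Dixon's test for 5 values. That test sets off about 1 group in 20 by chance, and naive saline arrays do not enter the comparison of pretreated rats other than through the shared spread.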

How the results depend on the processing

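Methylphenidate minus saline gave 4 genes higher and 3 lower; the counts were 2 and 3 after quantile normalization, 4 and 3 with log2 of signal plus 22.8, and 3 and 2 with a filter of 60%. They were 0 and 0 with no filter (1448 genes at an unadjusted p under 0.05), with all probe sets (2094 of 18625), with the mean of probe sets (1036) and with the marker covariate over all striatal (890) or the 12 pretreated arrays (367), all in limma. They were 0 and 1 without the intensity trend, 8 and 10 with the 12 pretreated arrays, 32 and 54 with the 6 arrays compared, 18 and 27 without the array of cortical profile, and 124 and 124 with array weights. With the replicate block over the 12 arrays they were 11 and 12, 5 of the 7 genes kept. Of 18 correlations of same-numbered arrays, 7 were over 0.1 (range -0.145 to 0.276). Between saline and methylphenidate arrays they ran from 0.0442 to 0.151. These values do not settle whether the numbers pair the arrays. Leaving out 1 array gave 0 to 6 higher and 0 to 9 lower. The cause of these shifts was not tested.

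Methylphenidate minus methamphetamine gave 4 higher and 2 lower without the array of cortical profile, and 0 to 21 and 0 to 45 with 1 array left out. Methylphenidate minus amphetamine gave 1 higher with no filter and 1 with the 12 arrays. The difference between cohorts gave 1 higher with no filter, 0 lower after quantile normalization (1223 at an unadjusted p under 0.05 in limma), 18 higher and 15 lower without the array of cortical profile, and 0 to 41 and 0 to 44 with 1 array left out. With the covariate over the 12 arrays, Cck turned to -0.39, Ptgds to 0.09, Arc to 0.26 and Ppp1r1b to 0.01. Over all striatal arrays Drd1 turned to 0.30, Drd2 to 0.58, Penk to 0.22, Pdyn to 0.11 and Ppp1r1b to 0.43; over the 12 arrays the first 4 stayed below 0 (-0.41 to -0.17). Bsn turned to -0.16 with the mean of probe sets. With 1 array left out, Calb2 ran from -0.10 (without methylphenidate 3) to 0.51, Nr4a1 from -0.32 to 0.04 (without saline 1) and Elavl1 from -0.39 to 0.18, above 0 without saline 2 and without methylphenidate 3 (0.04). None of the 7 called genes reversed in the settings run, but Ncs1 went from 0.63 to 0.08 with the mean of probe sets and to 0.33 with the covariate over the 12 arrays. Of single-gene values over all settings, 1507 kept direction and call, 96 lost and 47 gained a call, 48 moved and 14 reversed. Few arrays and signal near background limit what low genes can show.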
